A study of Mus musculus with 8 samples.

Results

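The comparison set 4 mouse adrenal gland libraries labelled Siah1a -/- against 4 labelled wild type, which together are all 8 RNA sequencing libraries of the series. Siah1a encodes an E3 ubiquitin ligase, an enzyme that marks other proteins for the proteasome. Each genotype held 2 untreated libraries and 2 from mice that had received adrenocorticotropic hormone (ACTH), injected intraperitoneally at 100 µg/kg 1 hour before the glands were taken. All animals carried the strain label 129SVEV, each of the 4 groups had 1 animal labelled male and 1 labelled female, and the labels name no vehicle injection. Treatment was a term of the model, so that a difference between genotypes is an average over untreated and ACTH-treated glands. Of 18846 genes in the files, 15036 were tested, after genes with low counts and 325 genes in which a single library exceeded each of the rest by 8 times or more had been set aside.

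The adrenal cortex makes steroid hormones from cholesterol, which its cells take up from lipoproteins, release from stored esters or synthesize from acetyl-CoA. The synthesis enzymes are known targets of the transcription factor SREBP2, and the enzymes of fatty acid synthesis of its relative SREBP1. ACTH acts on cortical cells through cAMP and protein kinase A, which induce early response genes and steroid synthesis.

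The libraries held 8020111 to 29568950 estimated counts. Of the genes set aside, 102 were highest in the untreated wild-type library labelled male (Calb1 and Lrp2 of kidney tubules among them), 203 in the wild-type library after ACTH labelled female (albumin, Alb, and Trf of liver) and 20 in the ACTH-treated knockout library labelled male (Stmn2 and Prph of neurons). The untreated wild-type library labelled male held Xist, the X-inactivation RNA, at 397 CPM (counts scaled to library size) and the Y-linked gene Ddx3y at 3.13 CPM, while the rest of the libraries labelled male held 4.12 to 32.5 CPM and 317 to 384 CPM. The sex labels are therefore used below as labels only. Siah1a (chromosome 8, 86720454 to 86746006, mm10) was at 27.0, 26.4, 33.2 and 33.8 CPM in the wild-type libraries and at 21.4, 25.6, 19.4 and 17.6 CPM in the Siah1a -/- libraries. Here and below, 4 values for a genotype run from untreated to ACTH-treated libraries, with sex labels male, female, female, male for wild type and female, male, male, female for the knockout. The 4 knockout values lay below the 4 wild-type values, with a log2 fold change of -0.52 (SE 0.22) that did not pass over all genes (adjusted p = 0.331). These sums over the whole gene do not show which part was deleted, so the genotypes rest on the labels. Its close relative Siah1b averaged 3.53 ± 1.72 CPM in wild-type glands and 3.11 ± 2.16 CPM in Siah1a -/- glands (SD, n = 4 in each genotype here and below), and Siah2 averaged 19.9 ± 12.7 and 26.0 ± 8.91 CPM, both with overlap. The untreated wild-type library labelled male held Siah2 at 1.44 CPM and the other 3 wild-type libraries at 21.7 to 28.5 CPM, and without that library the log2 fold change of Siah2 was 0.05 in place of 0.45.

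In the knockout 26 genes were called, that is, passed an adjusted p of 0.05 in edgeR's quasi-likelihood test over all genes. They are 0.173% of the genes tested. Of these, 8 were higher (0.0532%) and 18 lower (0.12%). At an unadjusted p of 0.05 there were 2139 genes, 909 higher and 1230 lower. The 18 lower genes were mainly enzymes of lipid synthesis, with the secreted proteins Spp1, C3 and Efemp1 and the transporter Abcb1b. The 8 higher genes encode signalling and secreted proteins for the most part, such as Rgs2, Inha, Cxcr4 and Igfbp3. The median log2 fold change was -2.01 over the lower and 1.39 over the higher genes, against -0.033 over all genes. In 25 of the 26 genes the genotypes did not overlap, meaning that all 4 knockout libraries lay on 1 side of all 4 wild-type libraries. Over all genes, 614 were higher without overlap (4.08%) and 723 lower (4.81%). When genes were split by level into 4 equal parts, 21 of the called genes were in the most abundant part. The number of calls rests on single libraries and settings. Leaving out the knockout library labelled male after ACTH gave 0 calls, and leaving out the one labelled female gave 62. There were 5 calls when the female-labelled untreated wild type was left out, 5 when the male-labelled untreated knockout was, and 12 when the male-labelled wild type after ACTH was. With the sex label in the model 7 genes were called, 5 of them among the 26, and leaving out the untreated wild-type library labelled male as well gave 36, 16 of them among the 26. With the 4 pairs of equal treatment and sex label as a block there were 66 calls, 21 of them among the 26, and with the genes that had been set aside retained there was 1 call. The 26 genes had the same direction in each of 22 analyses, listed in the description of the processing. They were chosen in these same libraries and all 26 had 1 sign in all 4 pairs, so the shared direction is no separate support.

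**Figure D1:**
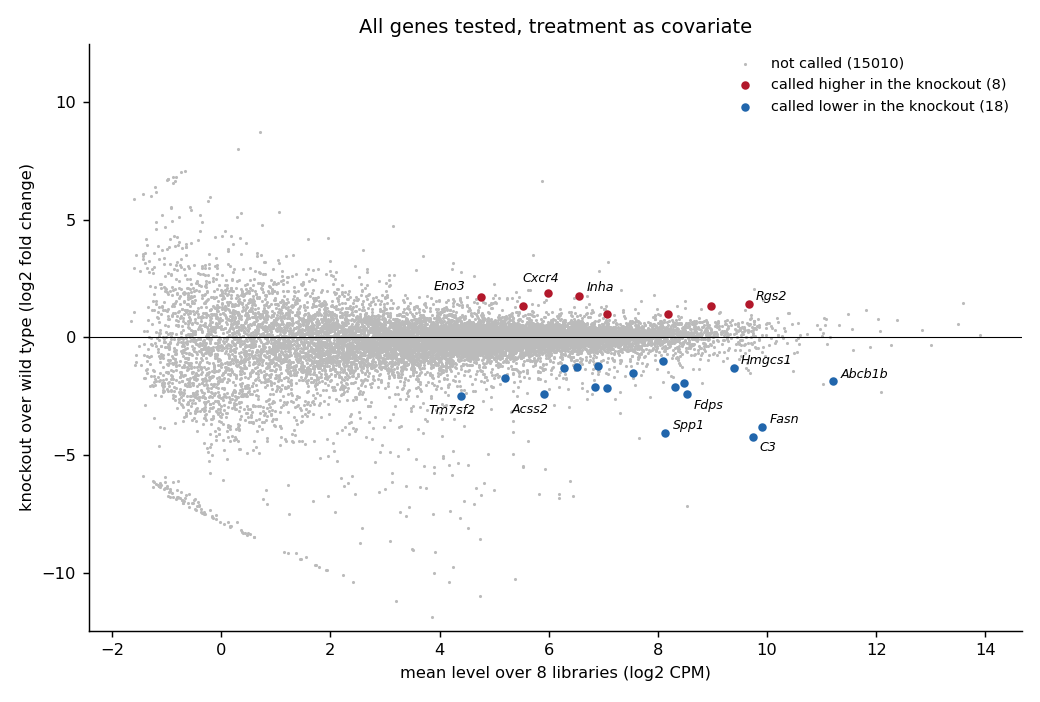
Log2 fold change of the knockout over wild type (vertical axis) against the mean level over the 8 libraries in log2 CPM (horizontal axis) for the 15036 genes tested, with 8 genes called higher in red and 18 called lower in blue. The called genes lie mostly among the more abundant genes, and C3, Spp1 and Fasn lie lowest among them.

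Enzymes of cholesterol synthesis lay lower in knockout glands along most of the pathway. Of 20 enzymes tested, 5 fell (among them Hmgcs1, Fdps, Tm7sf2 and Idi1), 0 rose and 15 did not pass, where 0.12% of all genes fell. In 16 of the 20 the knockout libraries all lay below wild type, against 4.81% of all genes, and the list's median log2 fold change was -1.22. At the start of the pathway, Hmgcs1, the cytosolic HMG-CoA synthase, was at 849 and 1007 CPM in untreated and 930.2 and 1001 CPM in ACTH-treated wild type. In the knockout it was at 374 and 486 CPM untreated and 360.3 and 342 CPM after ACTH. The highest knockout library was thus well below the lowest wild-type library, and the level fell 2.44-fold (log2 fold change -1.28, SE 0.15, adjusted p = 0.0243).

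Idi1 and Fdps, which make and join the isoprenoid units, fell 3.78-fold and 5.36-fold. Fdps was at 593, 839, 619 and 419.8 CPM in wild-type glands and at 137, 163, 129 and 43.3 CPM in Siah1a -/- glands, so that every knockout library was below every wild-type one. Tm7sf2, a sterol C14-reductase of the late pathway, fell to 6.33 ± 2.39 CPM, from 35.3 ± 7.70 CPM in wild type (log2 fold change -2.51, SE 0.36, adjusted p = 0.0453). Squalene epoxidase (Sqle) and lanosterol demethylase (Cyp51) lay lower without overlap, with log2 fold changes of -1.03 (SE 0.21) and -1.41 (SE 0.29) and adjusted p = 0.0752 and 0.0798. Dhcr7, the reductase of the last step, was the exception with a positive value, at 721 ± 99.0 CPM in wild-type glands and 891 ± 306 CPM in Siah1a -/- glands, and its libraries overlapped. The summed level of the 20 enzymes was 4369 to 5508 CPM in wild-type and 1697 to 3149 CPM in knockout libraries.

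The promoter of Hmgcs1 is shown because it was the only one among the matched promoters of called genes that held the classical sterol regulatory element (SRE) TCACCCCAC on either strand. The run goes from 250 bases before to 50 after the RefSeq start (GRCm38.p6, the assembly called mm10, chr13:119690101-119690400, plus strand), with the match in capitals at position -137 from the start.
Hmgcs1: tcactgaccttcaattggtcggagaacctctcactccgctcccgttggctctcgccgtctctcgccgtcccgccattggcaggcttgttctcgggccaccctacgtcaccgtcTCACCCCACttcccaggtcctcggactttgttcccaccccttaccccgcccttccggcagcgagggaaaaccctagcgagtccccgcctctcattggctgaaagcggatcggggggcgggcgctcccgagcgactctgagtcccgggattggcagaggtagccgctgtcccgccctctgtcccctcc
In promoters of the same length 0.615% of 14470 from tested genes held this element, and among 18 promoters of cholesterol synthesis genes 1 did. With 1 free base (TCACNCCAC) the share over all promoters was 1.18%, and Spp1 joined Hmgcs1 among the called genes. The match is a description of the sequence and not a binding site measured here.

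The genes that sense sterol and control this pathway had a smaller median difference, which was not tested against that of the enzymes. Of 10 tested genes of sterol regulation and lipoprotein uptake, 0 passed and the median was -0.37. Without overlap 2 lay lower and 1 higher (20% and 10%, against 4.81% and 4.08% of all genes). The lower ones were Stard4, a sterol carrier (43.2, 56.4, 49.4 and 39.5 CPM in wild-type glands, 5.57, 14.1, 15.6 and 6.26 CPM in Siah1a -/- glands, adjusted p = 0.0581), and Insig1, which retains SREBP in the endoplasmic reticulum (adjusted p = 0.0935). Mylip, a ubiquitin ligase that limits lipoprotein uptake, was the higher one, at 16.7 ± 3.49 and 31.3 ± 5.97 CPM. The libraries overlapped for the transcription factors themselves, with log2 fold changes of -0.64 (SE 0.32) for Srebf2 and -0.40 (SE 0.25) for Srebf1. Among 14 genes of cholesterol supply, storage and efflux 0 passed, 2 lay lower without overlap (14.3%, against 4.81% of all genes) and the median was -0.07. Plin2, which coats lipid droplets, and the apolipoprotein Apoe lay lower without overlap (log2 fold changes -0.79, SE 0.15, and -1.44, SE 0.46), and the highest Apoe value, 4798 CPM, was in the library that held liver transcripts. Scarb1, the receptor for HDL cholesterol, averaged 2193 ± 713 CPM in wild-type glands and 4957 ± 2437 CPM in Siah1a -/- glands, with overlap.

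Genes of fatty acid synthesis lay lower as well, and those of its first steps fell. Of 14 genes tested 3 fell, Fasn, Acaca and Acss2, and 0 rose, where 0.12% of all genes fell. In 5 of the 14 the values lay lower without overlap (35.7%, against 4.81% of all genes), and the median was -1.0. Fasn, the fatty acid synthase, was at 858 and 714 CPM in untreated and 1749.7 and 3920.3 CPM in ACTH-treated wild type. In the knockout it was at 88.3 and 112 CPM untreated and 72.8 and 159 CPM after ACTH. The lowest wild-type library held over 4 times the highest knockout library, and the fitted difference was 13.9-fold (log2 fold change -3.79, SE 0.45, adjusted p = 0.0243). Acaca, which makes malonyl-CoA, fell from 519.9 ± 240.1 to 114 ± 23.1 CPM, and Acss2, which makes acetyl-CoA from acetate, from 102 ± 50.9 to 18.1 ± 3.56 CPM. The desaturase Scd1, which is also on the list of adipocyte genes below, had a log2 fold change of -1.98 (SE 0.59) and ranged from 1125 to 7852 CPM in wild-type glands and from 199.7 to 1687 CPM in Siah1a -/- glands, which overlapped.

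Further called genes of lipid and glycogen metabolism fell beside them. Acox3, a peroxisomal acyl-CoA oxidase, fell from 129 ± 13.4 to 55.2 ± 11 CPM, Agpat2, an enzyme of glycerolipid synthesis, 2.31-fold, and Pcyt2, of phosphatidylethanolamine synthesis, 2.47-fold. Adipor2, an adiponectin receptor, fell from 366 ± 95.5 to 182 ± 39.1 CPM and Pygl, a glycogen phosphorylase, from 223 ± 123 to 45.5 ± 12.5 CPM. Adipose tissue expresses several of these genes, and fewer cells of a type and less RNA per cell cannot be told apart in whole glands. The summed level of 15 adipocyte genes was 4680 to 17600 CPM in wild-type and 3536 to 12090 CPM in knockout libraries, 11 of the 15 values were negative and the median was -0.62. Adrb3 (log2 fold change -2.92, SE 1.0) and Plin4 (-1.41, SE 0.52) lay lower without overlap, and none of the 15 passed. The defining markers Adipoq, Cidec, Fabp4 and Plin1 overlapped, with log2 fold changes of -0.29 (SE 0.30), 0.08 (SE 0.40), 0.20 (SE 0.24) and -0.62 (SE 0.49). The adipocyte median in the 4 pairs of libraries that share treatment and sex label was -0.27 and -0.26 in the untreated pairs, -3.36 in the ACTH-treated pair labelled male and 0.60 in the one labelled female. In that last pair the medians of cholesterol and fatty acid synthesis were -1.64 and -0.68.

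**Figure D2:**
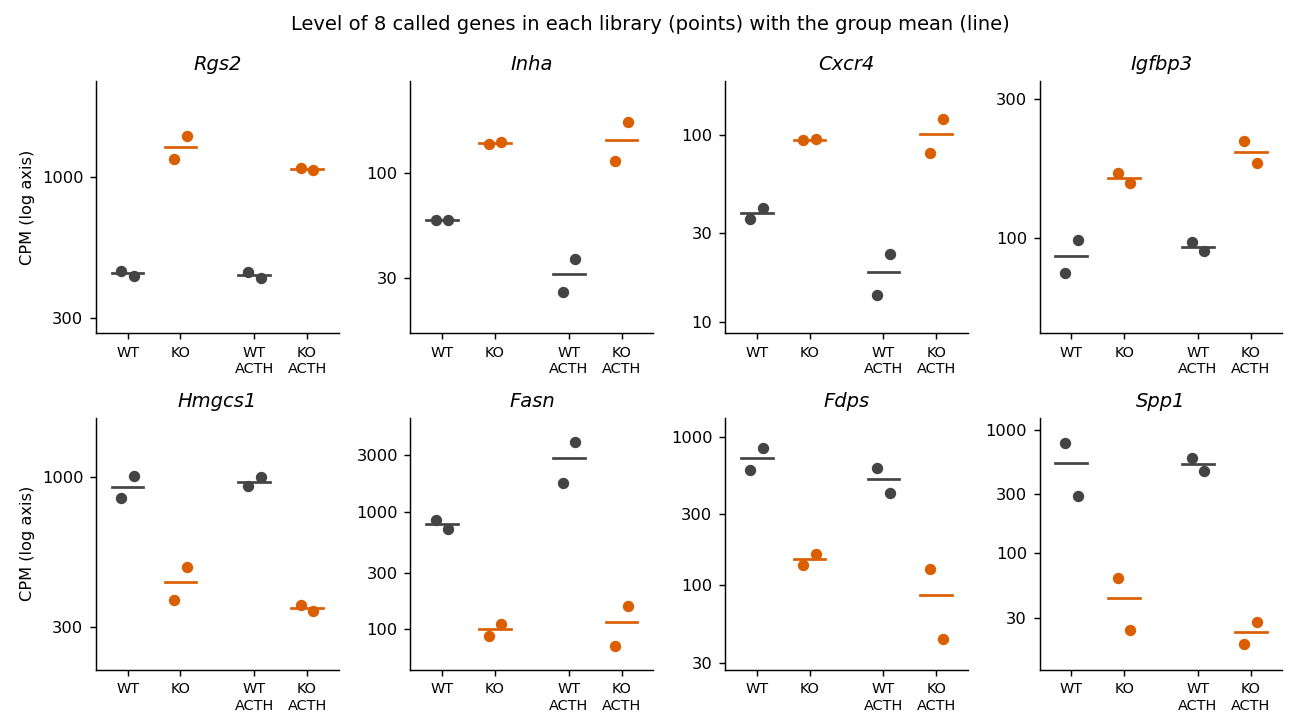
CPM on a log axis of 4 called higher genes (top) and 4 called lower genes (bottom) in each library, with points for libraries, lines for the mean of each group of 2, wild type in grey and knockout in orange. In the 8 genes all knockout libraries lie on 1 side of all wild-type libraries, in untreated and ACTH-treated glands alike.

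The largest differences among called genes were in secreted proteins. C3, the central complement component, was at 439, 1449.5, 3739.7 and 871 CPM in wild-type glands and at 74.9, 105, 37.5 and 101 CPM in Siah1a -/- glands (log2 fold change -4.22, SE 0.65, adjusted p = 0.0495). The wild-type libraries differed among themselves, and the highest was the ACTH-treated library that also held liver transcripts. Spp1, the matrix protein osteopontin, was at 779, 290.3, 586 and 463 CPM in wild-type glands and at 62.6, 24.1, 18.3 and 27.8 CPM in Siah1a -/- glands, a 16.7-fold fall (log2 fold change -4.06, SE 0.43, adjusted p = 0.0231). Its wild-type value of 779 CPM came from the library that held kidney transcripts, and the other 3 wild-type libraries held 290.3 to 586 CPM. Efemp1, an extracellular matrix glycoprotein, fell from 182 ± 62.3 to 46.7 ± 26.5 CPM, and Abtb2, a BTB domain protein, 3.30-fold. Of 37 collagen genes 0 passed, 2 lay lower without overlap (Col14a1 and Col5a1, 5.41% against 4.81% of all genes) and the median was -0.46.

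Abcb1b, an efflux transporter, is also a gene of the X-zone, a transient inner zone of the mouse cortex that is known to differ between the sexes. It was at 2309, 4972, 3591 and 3941 CPM in wild-type glands and at 1489, 1187, 783 and 759.7 CPM in Siah1a -/- glands, a 3.64-fold fall (adjusted p = 0.0453). Of 6 X-zone genes tested 1 fell, where 0.12% of all genes did, 5 did not pass, and the median was -1.92. Without overlap 2 of the 6 lay lower (33.3%, against 4.81% of all genes). Thrb, a thyroid hormone receptor, lay lower without overlap (log2 fold change -1.30, SE 0.26, adjusted p = 0.0722). The zone's marker Akr1c18 was at 6327, 9386, 6731 and 3335 CPM in wild-type glands and at 7251, 1148, 137 and 624 CPM in Siah1a -/- glands. The high knockout value was from the untreated library labelled female, inside the wild-type range. Xist was at 355 and 255 CPM in the Siah1a -/- libraries labelled female and at 4.12 and 6.09 CPM in those labelled male, while in wild type 3 of 4 libraries held 397 to 779 CPM and 1 held 32.5 CPM. The part of this difference in the X-zone values was not tested.

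Genes of the cytosolic ribosome lay higher in knockout glands with few exceptions. No member passed over all genes, and in 68 of 78 tested (87.2%) all knockout libraries lay above all wild-type libraries, against 4.08% of all genes. The median log2 fold change was 0.55, and 77 of the 78 values were positive. In the 4 pairs of libraries the median was 0.48, 0.56, 0.62 and 0.50. The summed level of the list was 28370 to 31080 CPM in wild-type and 39960 to 43620 CPM in knockout libraries, and the ranges did not overlap. Rps19, of the small subunit, was at 236, 225, 251 and 265 CPM in wild-type glands and at 367, 402, 428 and 407 CPM in Siah1a -/- glands (log2 fold change 0.72, SE 0.12, adjusted p = 0.0568). For this gene the mean was 244 CPM in wild-type glands (SD 17.7) and 401 CPM in Siah1a -/- glands (SD 25.25). Rpl38, of the large subunit, also lay higher without overlap, at 144 ± 12.4 CPM in wild-type glands and 242 ± 23.0 CPM in Siah1a -/- glands (adjusted p = 0.0591). Rps27l, a paralog of Rps27, was the 1 member with a negative value (-0.12). Ribosomal protein genes have many near-identical processed copies in the genome, and the sources used here do not say how the counting shared reads among them, so values of single members are uncertain.

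The lists of the mitochondrial ribosome and of oxidative phosphorylation, also of short genes, had medians near 0. Over all genes 4.08% lay higher and 4.81% lower without overlap. Among 74 genes of the mitochondrial ribosome 2 lay higher (2.7%) and 3 lower (4.05%), with a median of 0.00. Among 78 genes of oxidative phosphorylation 0 lay on either side, with a median of -0.13 (-0.62, 0.24, -0.23 and 0.21 in the 4 pairs of libraries). Between these lists and the cytosolic ribosome the difference was not tested. Shorter genes more often lay higher, with 6.2% without overlap in the shortest and 2.71% in the longest of 4 equal parts of the genes, and 9.34% of the most abundant of 4 parts did. The median length was 0.84 kb for the cytosolic ribosome, 0.81 kb for oxidative phosphorylation and 1.24 kb for the mitochondrial ribosome. Their median levels were 8.68, 7.53 and 5.58 log2 CPM, so the lists are not matched in abundance. Translation factors, which act on the ribosome, lay higher without overlap in 13 of 58 (22.4%) and lower in 1 (1.72%), with a median of 0.24. Eif3m had the smallest p among them (167 ± 4.47 CPM in wild-type glands and 259.6 ± 23.8 CPM in Siah1a -/- glands, adjusted p = 0.0679). Of 39 proteasome genes, the machinery to which ubiquitin ligases direct their substrates, 9 lay higher (23.1%) and 0 lower without overlap (median 0.31), such as Psma6 (log2 fold change 0.48, SE 0.13). None of the translation factor or proteasome genes passed.

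Messenger RNAs of ribosomal proteins are known for a pyrimidine tract at their 5′ end, through which their translation is controlled, so the sequence at the annotated start was compared. Windows from 10 bases before to 20 after the RefSeq start held a C followed by at least 5 C or T on the gene's strand in 52.2% of 69 windows of cytosolic ribosome genes. The share was 22.5% of 14470 windows of all tested genes, 25.4% for the mitochondrial ribosome, 21.7% for oxidative phosphorylation and 22% for translation factors. Windows of 4 members that lay higher without overlap are shown with these runs in capitals (GRCm38.p6). They are Rpl12 (chr2:32961702-32961731, plus strand), Rpl18 (chr7:45718061-45718090, plus), Rpl38 (chr11:114668570-114668599, plus) and Rps27 (chr3:90213629-90213658, minus).
Rpl12: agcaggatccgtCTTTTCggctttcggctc
Rpl18: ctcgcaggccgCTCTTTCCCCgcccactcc
Rpl38: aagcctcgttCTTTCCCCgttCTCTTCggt
Rps27: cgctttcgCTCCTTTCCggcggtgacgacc
The libraries measure RNA levels and not translation, and the search was added after the values of these genes had been seen.

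**Figure D3:**
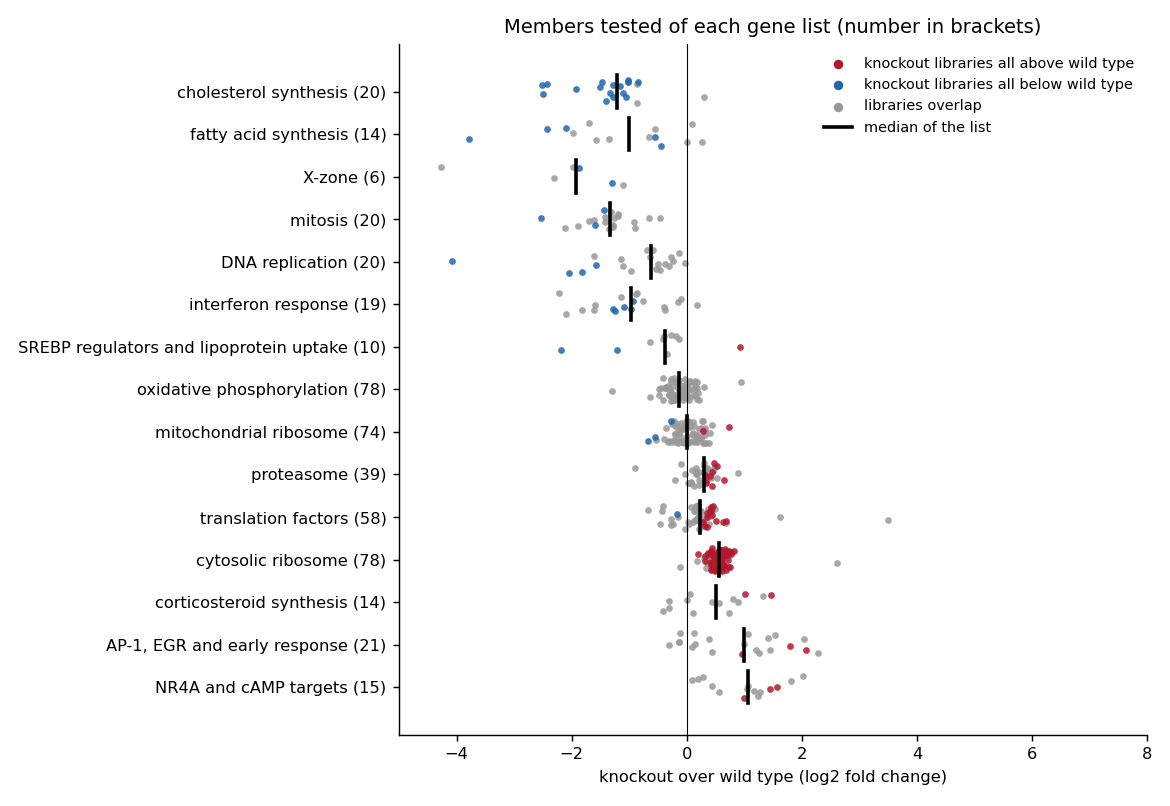
Log2 fold change of the knockout over wild type (horizontal axis) for each tested member of 15 gene lists, with members whose knockout libraries all lie above wild type in red, all below in blue, overlapping in grey, and the list median as a black bar. The cytosolic ribosome forms a tight group near its median of 0.55, and cholesterol synthesis spreads around its median of -1.22.

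Among the 8 higher genes the smallest p belonged to Rgs2, which speeds the switching off of G-protein signals. It was at 449, 429, 445 and 421 CPM in wild-type glands and at 1169, 1429, 1082 and 1069 CPM in Siah1a -/- glands, a 2.71-fold rise (log2 fold change 1.44, SE 0.13, adjusted p = 0.0161). Inha, the inhibin alpha subunit made by cortical cells, was at 58.2 and 58.6 CPM in untreated and 25.5 and 37.2 CPM in ACTH-treated wild type, and at 139.7, 142, 114 and 179 CPM in Siah1a -/- glands. It rose 3.35-fold, and the wild-type libraries after ACTH were the lowest of all. Cxcr4, a chemokine receptor, had the same order, with 35.6 and 40.7 CPM untreated and 13.9 and 23.2 CPM after ACTH in wild type, and 93.9, 95.2, 80.2 and 122 CPM in Siah1a -/- glands (3.67-fold, adjusted p = 0.0495).

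Igfbp3, which binds insulin-like growth factors, rose from 90.1 ± 10.3 to 179 ± 26.5 CPM, and Nucb2, the precursor of nesfatin, from 26.3 ± 4.54 to 66.2 ± 8.75 CPM. Eno3, an enolase of muscle, rose 3.30-fold from 12.6 ± 1.47 CPM, and Fxyd6, a regulator of the sodium pump, 2.02-fold. Trp53inp1, a target of p53, rose from 290.3 ± 139 to 709 ± 212 CPM and was the 1 called gene with overlap, since an ACTH-treated wild-type library held 490.8 CPM and an untreated knockout library 460.0 CPM. Genes that just missed the threshold included Zfp36l1, which promotes decay of AU-rich messages (229.7 ± 11.8 and 433 ± 65.0 CPM, adjusted p = 0.0505), the matricellular proteins Cyr61 (log2 fold change 1.94, SE 0.32) and Ctgf (0.97, SE 0.16), both targets of YAP, with adjusted p = 0.0568, and the coactivator Cited2 (1.16, SE 0.20, adjusted p = 0.0581). All 4 had knockout libraries above every wild-type library.

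The early response genes that ACTH and other signals induce through cAMP lay higher in the knockout without passing, apart from Rgs2. Of 15 NR4A and cAMP target genes 1 rose, where 0.0532% of all genes did, and 14 did not pass. The median was 1.07, and 3 lay higher without overlap (20%, against 4.08% of all genes). Without the wild-type library that held liver transcripts 5 did, and without the untreated knockout library labelled female 7, where 4.93% and 7.01% of all genes did. Each other library left out gave 3 or 4. Of 21 AP-1, EGR and related genes 0 passed, 3 lay higher without overlap (14.3%, Junb, Fos and Klf6) and the median was 0.99. When the untreated knockout library labelled female was left out 6 lay higher without overlap, and 3 to 5 with each other library left out. Nr4a1, an orphan nuclear receptor, was at 574, 244, 646 and 477 CPM in wild-type glands and at 701, 1539, 1919 and 1707 CPM in Siah1a -/- glands (log2 fold change 1.57, SE 0.31, adjusted p = 0.068). Junb was at 51.3, 30.9, 49.4 and 28.4 CPM in wild-type glands and at 57.1, 179, 182 and 289 CPM in Siah1a -/- glands (log2 fold change 2.07, SE 0.41, adjusted p = 0.0718). In both genes the untreated knockout library labelled female was close to the highest wild-type library and the other 3 knockout libraries stood well above. The medians of the NR4A and cAMP list were 1.57, 0.20, 0.65 and 1.02 in the untreated pairs labelled male and female and the ACTH-treated pairs labelled male and female.

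The promoter of Dusp1, a MAP kinase phosphatase, is shown as the member without overlap that held the full cAMP response element TGACGTCA. Dusp1 was at 40.3, 37.0, 41.4 and 50.1 CPM in wild-type glands and at 72.6, 80.1, 117 and 66.4 CPM in Siah1a -/- glands (log2 fold change 1.00, SE 0.20, adjusted p = 0.072). The full element and a second, shorter match (TGACGTC) are in capitals in the run from GRCm38.p6 (chr17:26508423-26508722, minus strand).
Dusp1: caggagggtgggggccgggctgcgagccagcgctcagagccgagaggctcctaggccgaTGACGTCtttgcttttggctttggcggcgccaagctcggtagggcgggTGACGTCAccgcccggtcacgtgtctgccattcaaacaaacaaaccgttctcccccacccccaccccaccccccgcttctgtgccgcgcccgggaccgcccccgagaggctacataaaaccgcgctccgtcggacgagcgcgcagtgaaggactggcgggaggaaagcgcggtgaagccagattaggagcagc
The full element was in 2.93% of 14470 promoters and the shorter TGACGTC, which it contains, in 5.07%, both strands searched. The full element was in 2 of 16 promoters of the NR4A and cAMP list (12.5%, of Dusp1 and Ppp1r15a) and in 2 of 13 promoters of fatty acid synthesis genes (15.4%). The shorter one was in 4 of 16 promoters of the NR4A and cAMP list (25%, of Dusp1, Nr4a3, Per1 and Ppp1r15a) and in 0 of the promoters of the called genes that were matched.

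Genes of corticosteroid synthesis did not pass, and 2 of 14 lay higher without overlap (14.3%, against 4.08% of all genes, median 0.50). Leaving out either the female-labelled untreated wild type or the female-labelled knockout after ACTH, 6 did, where 5.89% and 6.68% of all genes did. Each other library left out gave 2 or 3. With all libraries in, the 2 were Fdx1, the ferredoxin that feeds electrons to mitochondrial steroid enzymes (1885 ± 151 and 3814 ± 923 CPM, adjusted p = 0.0651), and Akr1b7, a reductase of steroid by-products (6639 ± 1756 and 18119 ± 7903 CPM, adjusted p = 0.0928). Cyp11b1, the 11β-hydroxylase, was at 2313, 4269.7, 2539 and 3124 CPM in wild-type glands and at 5184, 5958, 6304 and 3795 CPM in Siah1a -/- glands, so that only 1 wild-type and 1 knockout library overlapped (log2 fold change 0.80, SE 0.23, adjusted p = 0.159). Star, which carries cholesterol into mitochondria, was at 10229, 15272, 14740 and 19014 CPM in wild-type glands and at 12870, 18424, 17618 and 14248 CPM in Siah1a -/- glands, with overlap (log2 fold change 0.11, SE 0.20). Of 17 genes of the zona glomerulosa, the outer zone that makes aldosterone, 0 passed, 2 lay higher without overlap (11.8%) and the median was 0.75. Without the untreated knockout library labelled female 6 of the 17 did (7.01% of all genes), and 2 to 5 with each other library left out. Cyp11b2, the aldosterone synthase, was at 14.6, 11.5, 12.9 and 20 CPM in wild-type glands and at 14, 45.4, 79.7 and 29.2 CPM in Siah1a -/- glands (log2 fold change 1.46, SE 0.43, adjusted p = 0.169). The untreated knockout library labelled female lay among the wild-type values and the other 3 above them.

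Interferon-stimulated genes lay lower in the knockout at low levels. Of 19 tested 0 passed, 5 lay lower without overlap (Stat2, Gbp2, Rtp4, Irf7 and Oas1a, 26.3% against 4.81% of all genes), 18 values were negative and the median was -0.96. Leaving out the untreated wild-type library labelled male, 11 lay lower without overlap (57.9%, against 7.79% of all genes). Each other library left out gave 5 to 7. Stat2, a transducer of interferon signals, was at 39.9, 50.7, 60.8 and 29.4 CPM in wild-type glands and at 24.5, 21.6, 20.1 and 19.3 CPM in Siah1a -/- glands (log2 fold change -1.09, SE 0.25, adjusted p = 0.0978). Irf7, the transcription factor that amplifies the response, was at 16.7, 16.5, 15.1 and 21.6 CPM and at 9.59, 6.35, 7.47 and 13.5 CPM. The pair medians of the list were -0.66, -0.78, -1.0 and -1.18, all of 1 sign. Genes of macrophages and antigen presentation had a median of -0.19, 0 of 18 without overlap, and summed levels of 357 to 668 CPM in wild-type glands and 323 to 587 CPM in Siah1a -/- glands.

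Genes of the cell cycle lay lower as well, with 0 passing. All 20 genes of mitosis and all 20 of DNA replication had negative values, with medians of -1.33 and -0.62, and 3 and 4 of them lay lower without overlap (15% and 20%, against 4.81% of all genes). Leaving out the untreated wild-type library labelled male, 6 of each list did (7.79% of all genes), and leaving out the knockout library labelled female after ACTH, 16 and 8 did (8.18% of all genes). Each other library left out gave 3 or 4 genes of mitosis and 4 or 5 of DNA replication. Top2a, the topoisomerase of dividing cells, was at 67.6, 68.8, 105 and 76.0 CPM in wild-type glands and at 22.4, 16.2, 14.8 and 73.5 CPM in Siah1a -/- glands. The ACTH-treated knockout library labelled female alone reached the wild-type range. Mcm5, of the replicative helicase, was lower in all 4 knockout libraries (32.4 ± 6.45 and 11 ± 5.20 CPM, log2 fold change -1.58, SE 0.36, adjusted p = 0.0992).

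**Figure D4:**
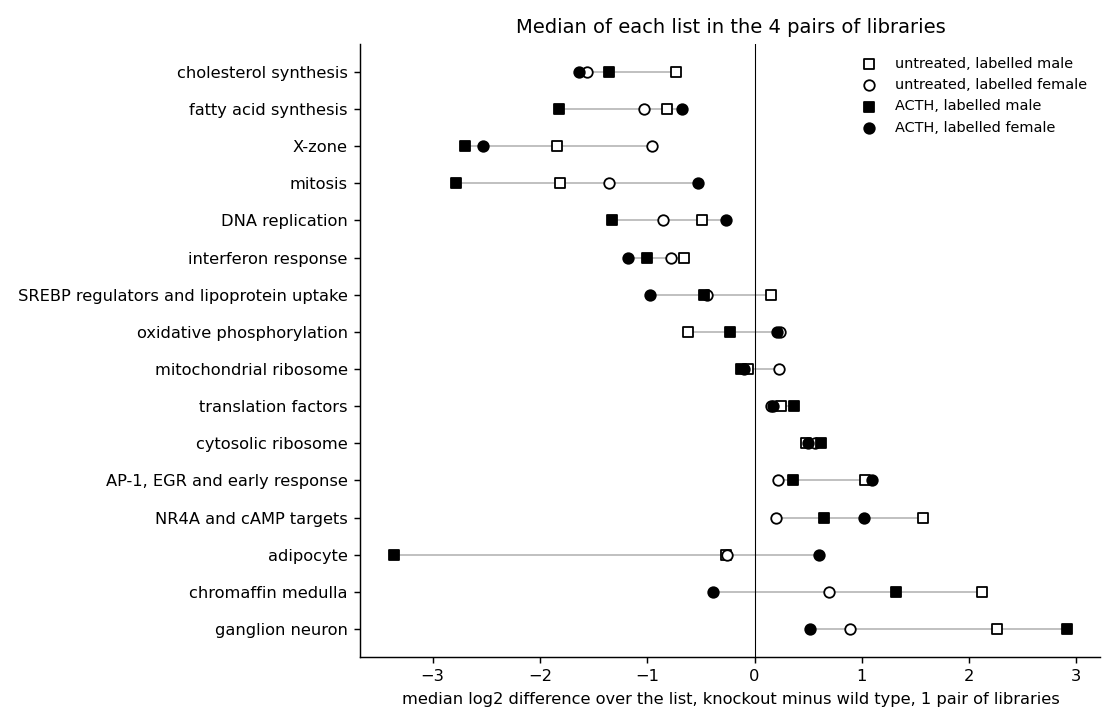
Median log2 difference of each gene list (horizontal axis) in the 4 pairs of libraries that share treatment and sex label, with squares for pairs labelled male, circles for pairs labelled female, open symbols for untreated and filled for ACTH-treated pairs. The 4 medians of the cytosolic ribosome lie between 0.48 and 0.62 and those of adipocyte genes between -3.36 and 0.60.

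Genes of other cell types in the gland varied between knockout libraries. Of 20 chromaffin genes of the medulla 0 passed and 2 lay higher without overlap (10%, against 4.08% of all genes, median 1.14), Penk, an opioid precursor (14.9 ± 6.65 and 48.2 ± 16.8 CPM), and Ret, a neurotrophic receptor. Their summed level was 2620 to 5059 CPM in wild-type glands and 2293 to 9520 CPM in Siah1a -/- glands, and the median of the ACTH-treated pair labelled female was -0.39. Leaving out the knockout library of that pair, the lowest knockout library for this list, 14 of the 20 lay higher without overlap (6.68% of all genes). Each other library left out gave 2 or 3. The sum of the ganglion neuron list was 50.4 to 63.7 CPM in wild-type glands, 89.6 to 113 CPM in 3 knockout libraries and 818 CPM in the ACTH-treated knockout library labelled male. Of 18 endothelial genes 0 passed, the median was 0.11, and 3 lay higher without overlap (16.7%, against 4.08% of all genes), among them Cldn5, of the tight junction (48.4 ± 9.54 and 98.1 ± 22.8 CPM, adjusted p = 0.0798). The marker Kdr, a receptor for VEGF, overlapped (108 ± 35.7 and 135 ± 30.2 CPM, log2 fold change 0.32, SE 0.25). The sum of skeletal muscle genes was 3.79 to 71.4 CPM in wild-type glands and 3.31 to 115 CPM in Siah1a -/- glands. It was 6.97 and 3.31 CPM in the untreated knockout libraries, where Eno3 was at 36.0 and 50.9 CPM. The part of these cells in the other results was not tested.

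Most genes with the smallest p in 1 treatment differed in the same direction in the other, which does not hold for every gene or list above. In an analysis of untreated libraries alone and another of ACTH-treated libraries alone, which share no library, 10327 genes of at least 3 mean log2 CPM were compared. Of the 100 genes of smallest p that were higher in the untreated knockout, 95 were higher after ACTH, and of the 100 that were lower, 99 were lower, where 49.3% and 50.7% of all genes had those directions. Their median log2 fold changes after ACTH were 0.85 and -1.44. Genes chosen after ACTH kept the direction in untreated glands in 86 and 96 of 100 (51.7% and 48.3% of all genes), with medians of 0.66 and -0.88. Neither analysis alone, with 2 libraries a genotype, called any gene. Genes of the same list often shared a direction, so the 100 genes are not separate results. The tallies are a description and do not measure the spread between animals.

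No gene passed for a genotype difference that changed with ACTH in edgeR's test of the interaction (0 called, 332 at an unadjusted p of 0.05, lowest adjusted p = 1). DESeq2 called 1 (Slc4a1, of red cells, chosen here because it was the only call) and limma-voom 0. All 18 called lower genes had a larger fall after ACTH than without, where 63.6% of all genes lower without overlap and 54.6% of all genes had the more negative difference after ACTH. Fasn differed by -2.97 in untreated and -4.61 in ACTH-treated glands on the log2 scale, Acaca by -1.52 and -2.69, and Hmgcs1 by -1.11 and -1.46. In the ACTH-treated pairs labelled male and female Fasn differed by -5.75 and -3.46, Acaca by -2.91 and -2.39, and Hmgcs1 by -1.47 and -1.44. The pair labelled male set the highest adipocyte sum (17600 CPM, wild type) against the lowest (3536 CPM, knockout). The part of adipocyte RNA in the larger falls after ACTH was not tested. Among the 8 higher genes 5 had the larger difference after ACTH, such as Inha (1.27 and 2.22) and Cxcr4 (1.31 and 2.45), while Rgs2 had 1.57 and 1.31.

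**Figure D5:**
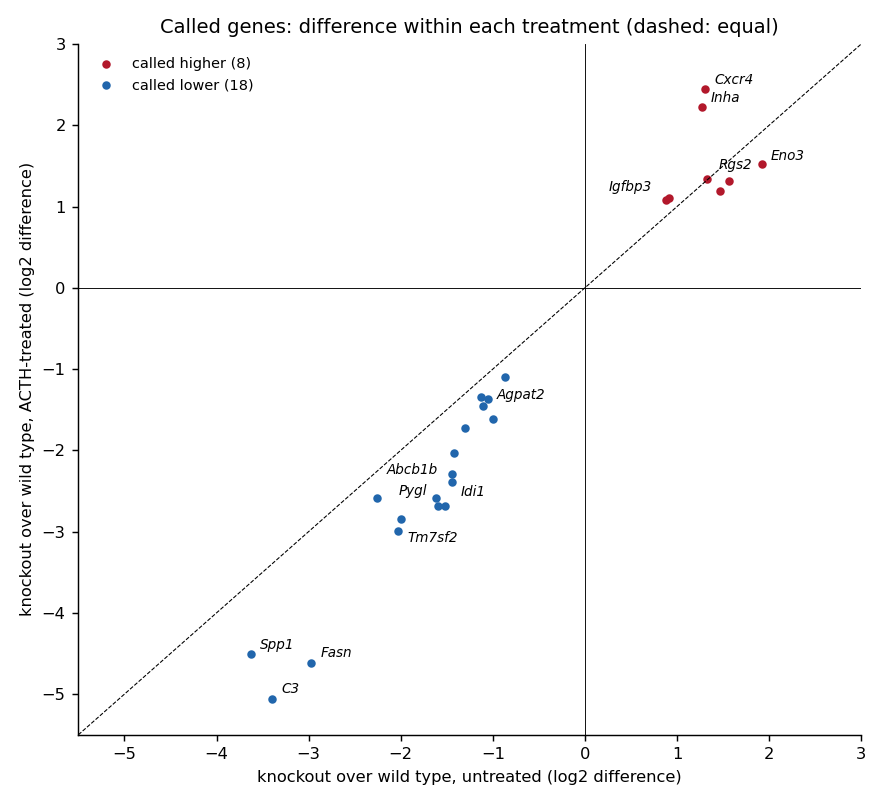
Log2 difference of the knockout from wild type in ACTH-treated glands (vertical axis) against that in untreated glands (horizontal axis) for the 26 called genes, with the dashed line where both are equal. All 18 lower genes (blue) lie below the line and 5 of the 8 higher genes (red) above it.

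By position, no called gene lay on chromosome 8, which carries Siah1a and has 778 genes tested, where 0.173% of all genes were called. Within 10 Mb of Siah1a, 161 genes were tested, and 6 lay higher and 6 lower without overlap (3.73% each), near the shares over all genes. Those lower included Siah1a itself and Gpt2, an alanine aminotransferase (chromosome 8, 85492576 to 85528902), with a log2 fold change of -2.21 and an adjusted p of 0.0505. The higher ones included Junb (84976909 to 84978748). The called genes lay on other chromosomes, with 2 higher and 4 lower on chromosome 11 (1228 genes tested) and at most 3 on any other. Chromosome 11 holds Fasn (120805958 to 120825166), Pcyt2 near it (120610062 to 120617947) and Acaca (84129635 to 84401651). Hmgcs1 is on chromosome 13 (119690351 to 119708260), Spp1 on chromosome 5 (104435111 to 104441053) and Rgs2 on chromosome 1 (143999338 to 144004149).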

How the data were processed

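RNA of adrenal glands was sequenced in 8 libraries (4 groups of 2, single reads, per the labels' protocols). The submitters' processing notes name TopHat2 (2.0.13), Bowtie2 (2.2.5.0), FastQC (0.11), Partek (6.6) and mm10, with no settings. The authors deposited an estimated count and an RPKM value for each of 28678 RefSeq transcripts, per the file headers. The library kit keeps the strand, per the labels, and the strand setting and the handling of reads with several matches are not given in the sources used here. Between 41.3% and 52.6% of the deposited estimated counts were not whole numbers. The RPKM values of the authors were used only with the counts to derive gene length.

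Counts were summed per gene symbol (18846, of which 24 had turned into dates) and rounded. The low-count filter was filterByExpr of edgeR with a minimum count of 10 (15361 genes), 325 genes with 1 library at least 8 times above every other were set aside, and TMM factors (0.966 to 1.053) were computed on the other 15036. edgeR 4.0.16 in R 4.3.3 fitted treatment and genotype (5 residual degrees of freedom) by quasi-likelihood, with Benjamini-Hochberg adjustment over all genes. SE were derived from the F statistic. A count of 3 corresponds to 0.117 to 0.361 CPM, which covers counting error only. Nothing in the labels beyond separate sample numbers states how animals were sampled, so p-values measure the spread between these samples. Sequences and positions are RefSeq's (GRCm38.p6), and 11387 of the tested genes had a promoter there.

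Named genes were the SIAH genes, the 15 of smallest p in each direction among genes without overlap and at least 3 mean log2 CPM, up to 4 called members of each list (or, where none was called, the 2 of smallest p and the 1 most abundant), 3 of smallest interaction p in each direction, and defining markers of cell types. Further list members, neighbours of Siah1a and genes shown for their sequence were named after their values were seen (such as Sqle, Cyp51, Dhcr7, Mylip, Apoe, Thrb, Akr1c18, Cyp11b1, Cyp11b2, Irf7, Rps27l and Gpt2). A few genes the rule selects are not reported here. Members and lists were chosen with earlier results of these data known. Alternatives were RLE factors, no low-count filter, other limits for setting genes aside, DESeq2 1.42.0, limma-voom 3.58.1, a robust fit, sex label as a term, single treatments or sex labels, and libraries left out. Counts without overlap were also repeated under other scalings and without each library, and a block of treatment and sex label was fitted, both added after seeing the data. For single lists, the libraries named as left out are those whose omission raised the count most.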

Additional observations from a re-analysis of the deposited data

Results flagged for a closer look

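Among the genes looked at singly, 4 had opposite signs in untreated and ACTH-treated glands in all pairs of libraries. None passed the interaction test over all genes (edgeR, adjusted p = 1 for each). Fxyd1, a regulator of the sodium pump, had log2 differences of 1.43 in untreated and -1.24 in ACTH-treated glands, an interaction of -2.67 (unadjusted p = 0.000697). It was at 7.46 and 9.81 CPM in untreated and 34.1 and 29.9 CPM in ACTH-treated wild type, and at 25, 21.6, 12.8 and 14.2 CPM in the knockout in the same order. Stox2, a winged-helix protein, had the opposite pattern, with differences of -0.79 and 0.84 and an interaction of 1.63 (edgeR, unadjusted p = 0.00752). Cyp2e1, a cytochrome of liver, had an interaction of -1.89 (edgeR, unadjusted p = 0.215), and its highest library was the ACTH-treated wild-type one that held liver transcripts (1472 CPM). Skp1a, a subunit of cullin ubiquitin ligases, had an interaction of -0.23 (edgeR, unadjusted p = 0.403).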

How the results depend on the processing

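The 26 calls became 817 with DESeq2, 134 with limma-voom, 79 in a robust edgeR fit and 59 with genes at 4 times above every other library set aside. They became 1 with genes at 8 times kept, 7 with the sex label, 66 with the 4 pairs of equal treatment and sex label as a block (an analysis outside the 22, 26 of 26 in the same direction), 15 without both wild-type libraries with transcripts of kidney or liver and 378 in libraries labelled male alone. The wild-type libraries labelled male include the untreated one with high Xist, low Ddx3y and kidney transcripts. In untreated or ACTH-treated libraries alone there were 0 calls. Leaving out 1 library gave 0 to 62 calls. The interaction had 0 calls, and 1 with DESeq2. Genes without overlap in the direction higher numbered 1168 without both those wild-type libraries (leaving out 1 library, 766 to 1087). In the direction lower there were 1618, and 926 to 1269 with 1 library left out. Fewer libraries make a lack of overlap more frequent by construction. The medians of the lists over the 22 analyses were 0.51 to 0.60 for the cytosolic ribosome, -1.63 to -1.01 for cholesterol synthesis, -1.41 to -0.78 for fatty acid synthesis, -0.66 to -0.10 for sterol regulation and uptake, -1.16 to -0.84 for interferon response, -2.44 to -0.98 for mitosis, -2.43 to -1.17 for the X-zone, 0.61 to 1.48 for NR4A and cAMP targets and 0.15 to 1.67 for chromaffin genes. The adipocyte median turned in sign (-1.74 to 0.06). Log2 fold changes that turned in sign belonged to genes with overlap. In libraries labelled male alone these were Fabp4 (-0.27), Cidec (-0.86) and Rps27l (0.12), and in those labelled female alone Adipoq (0.15), Plin1 (0.06), Dhcr7 (-0.22), Star (-0.15) and Siah2 (-0.14). In untreated libraries alone they were Siah1b (0.77), Srebf1 (0.04) and Rps27l (0.04), in ACTH-treated ones Cidec (-0.21) and Star (-0.08), with limma-voom Cidec (-0.13), without both wild-type libraries Rps27l (0.12) and Star (-0.11), and with the sex label but without the untreated wild-type library labelled male Dhcr7 (-0.01) and Star (-0.12). With 1 library left out, Siah1b ranged from -0.79 to 0.14, Cidec from -0.38 to 0.42, Star from -0.06 to 0.22, Siah2 from 0.05 to 1.24 and Rps27l from -0.24 to 0.09. The cause was not tested. The replicate numbers were given in accession order and mark no shared animal, litter or day, so they were not used to pair libraries, and the block above rests on treatment and sex labels alone. Depth differed 3.69-fold between libraries, and genes near 3 counts cannot be compared.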

Other observations

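A list of imprinted genes and genes of the insulin-like growth factor axis lay higher in the knockout (median 0.49 over 15 genes). Of these 1 was called higher, where 0.0532% of all genes were. Without overlap 4 lay higher (26.7%) and 0 lower, against 4.08% and 4.81% of all genes. The called member was Igfbp3, which is of that axis and not known as an imprinted gene. Ndn, which encodes necdin, was at 79.3, 95.6, 67.4 and 107 CPM in wild-type glands and at 154, 214, 159.9 and 182 CPM in Siah1a -/- glands (log2 fold change 1.02, SE 0.18, adjusted p = 0.0591). Grb10, an adaptor that limits insulin receptor signals, and Mest were closer between genotypes, at 177 ± 19.4 and 258 ± 51.7 CPM and at 49.7 ± 4.84 and 67.4 ± 4.61 CPM.

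Chaperones of the endoplasmic reticulum and glucocorticoid target genes showed smaller differences. Of 22 genes of the unfolded protein and integrated stress responses 0 passed, 3 lay higher without overlap (Hsp90b1, Manf and Pdia6, 13.6% against 4.08% of all genes) and the median was 0.34. Leaving out the wild-type library that held liver transcripts, 9 lay higher without overlap (40.9%, against 4.93% of all genes), and leaving out the untreated knockout library labelled female, 6 did (27.3%, against 7.01%). With each other library left out, 3 or 4 did. Of 19 glucocorticoid targets 0 passed, 2 lay higher without overlap (10.5%) and the median was 0.39. These were Ddit4, an inhibitor of mTORC1 signals (log2 fold change 0.89, SE 0.18, adjusted p = 0.0798), and Nfkbia, an inhibitor of NF-kB (0.65, SE 0.14, adjusted p = 0.0928).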
